A study of Mus musculus with 16 samples.

Results

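Zinc finger genes with a BTB or a SCAN domain were followed in the brains of fetal mice whose mothers lived in an enriched environment. Members were all genes whose symbol is Zbtb, Zkscan or Zscan followed by a number and that are listed in all 16 RNA sequencing libraries, with 1 exception that is not reported here. This gave 59 genes of the 13396 listed in all 16 libraries, made up of 38 Zbtb, 11 Zkscan and 10 Zscan names. Zbtb8os belongs by name only, because it encodes archease, a cofactor of the tRNA ligase complex, and lies on the strand opposite Zbtb8a. Zscan30 is a transcribed processed pseudogene in the mouse annotation used here (GENCODE M21).

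All animals were wild type and were sampled at embryonic day 18.5. The groups were hippocampus after the enriched environment (EE, 3 libraries), hippocampus after standard habitation (SH, 3 libraries), cortex EE (5 libraries) and cortex SH (5 libraries). The source of every library is labelled as brain, with the region given in the title, and the series title names the AHR and Src pathway as its subject. The labels name no litter, sex or individual fetus, so p-values measure the spread between these libraries only.

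BTB zinc finger proteins pair with each other through the BTB domain, which also recruits corepressors such as Ncor1 and Bcor or the ubiquitin ligase scaffold Cul3, while their C2H2 zinc fingers bind DNA. SCAN domains likewise serve for pairing between SCAN proteins, and Zkscan proteins carry a KRAB domain as well, a module that in many zinc finger proteins recruits the repressor Trim28. In the developing forebrain the best known member is Zbtb18 (RP58), a repressor required for the differentiation of cortical projection neurons.

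Values are FPKM, a read count scaled by transcript length and by library size, as the authors deposited them. Whole reads recovered from the steps of these values numbered 11778883 to 21437128 per library, and a member had 28 to 19636 of them, with a median of 366. Hippocampus and dentate markers summed to 13.6 to 28.6 FPKM in hippocampus EE and 21.8 to 38.7 in hippocampus SH, against 5.95 to 7.31 in cortex EE and 5.69 to 7.74 in cortex SH. Markers of cortical projection neurons were present in every group, at 233 to 345 FPKM in sum in hippocampus and 199.95 to 301 FPKM in cortex. Choroid plexus markers differed widely among hippocampus libraries, with sums between 36.5 and 10470 FPKM in EE and between 39.3 and 16921 FPKM in SH. Cortex SH replicate 3 stood apart from the other libraries. Over 12885 genes its deviation from the mean of its block fell with transcript length (Spearman's rho of -0.74, against 0.24 to 0.63 in the other 5 libraries of cortex replicates 1 to 3), and the members' median deviation in it was -0.30 on the log2 scale. Such a rho is across genes, which are not independent replicates. The main counts and medians that include it are also given without it, except the directions set side by side over the 3 blocks.

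Promoter sequences are shown for 4 of the 5 members with the smallest p for a lower level under EE, because the series asks about a transcription factor, AHR, whose binding letters can be looked for in them. They run from 250 bases before to 50 after the start of the RefSeq transcript (build GRCm38.p6), 5′ to 3′ on the gene's strand. They lie at chr7:12897559-12897858 (plus strand) for Zscan22, chr13:21478599-21478898 (plus) for Zkscan4, chr4:129377979-129378278 (minus) for Zbtb8a and chr5:138084834-138085133 (plus) for Zkscan1. Capitals mark a match to 1 of 4 short motifs that were searched on both strands.
Zscan22: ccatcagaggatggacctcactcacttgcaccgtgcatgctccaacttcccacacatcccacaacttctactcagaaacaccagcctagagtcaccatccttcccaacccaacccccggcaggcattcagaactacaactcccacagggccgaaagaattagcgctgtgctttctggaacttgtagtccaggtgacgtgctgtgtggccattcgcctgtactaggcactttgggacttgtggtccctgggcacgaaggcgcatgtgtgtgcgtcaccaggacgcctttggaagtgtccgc
Zkscan4: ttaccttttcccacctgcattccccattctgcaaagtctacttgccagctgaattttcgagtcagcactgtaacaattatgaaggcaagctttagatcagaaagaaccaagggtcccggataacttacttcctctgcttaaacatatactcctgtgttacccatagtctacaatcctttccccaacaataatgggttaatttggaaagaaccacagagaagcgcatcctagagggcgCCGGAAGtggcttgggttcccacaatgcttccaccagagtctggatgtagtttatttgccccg
Zbtb8a: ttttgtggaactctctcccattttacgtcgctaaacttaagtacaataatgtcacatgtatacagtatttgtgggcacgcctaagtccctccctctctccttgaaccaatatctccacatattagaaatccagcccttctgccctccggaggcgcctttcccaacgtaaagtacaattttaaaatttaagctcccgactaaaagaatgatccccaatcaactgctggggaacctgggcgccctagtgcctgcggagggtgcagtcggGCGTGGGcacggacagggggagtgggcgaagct
Zkscan1: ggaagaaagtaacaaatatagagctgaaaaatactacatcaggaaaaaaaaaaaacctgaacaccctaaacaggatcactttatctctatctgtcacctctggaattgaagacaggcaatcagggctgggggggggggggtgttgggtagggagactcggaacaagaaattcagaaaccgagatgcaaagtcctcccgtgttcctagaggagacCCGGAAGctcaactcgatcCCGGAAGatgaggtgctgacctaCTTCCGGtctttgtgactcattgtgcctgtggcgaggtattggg
Of the 59 members 48 had such a promoter, and Zkscan14, the member with the smallest p of all, was not among them. Each member counts with 1 promoter, the one nearest its annotated start. The 32544 promoters set beside them are all distinct RefSeq promoters, not limited to 1 per gene or to genes expressed here. The AHR response element (TNGCGTG) occurred in 1 of the 48 member promoters, that of Zbtb25, which is 2.08%, against 5.1% of all 32544 promoters. None of the 4 promoters printed above held these letters. The core of the activity-dependent factor Egr1 (GCGTGGG), whose letters overlapped those of the AHR element in 0 member promoters, occurred in 5 of 48 (10.4%, against 5.08% of all), namely Zbtb11, Zbtb12, Zbtb33, Zbtb8a and Zscan20. In Zbtb8a it lies 17 bases after the start. The binding core of Zbtb18 itself (ACATCTG) occurred in 2 of 48 (4.17%, against 4.35%), in Zbtb18 and Zbtb46. The ETS core (CCGGAAG), added to the search after these sequences were seen, occurred in 18 of 48 (37.5%, against 8.91%). Zbtb6 and Zbtb26, which start close together on the same strand, both count among the 18. Zkscan1 holds it 3 times and Zkscan4 once, 13 bases before the start. Member promoters had a median of 22.5 CG pairs against 7 in all promoters, and the part of that difference in the motif shares was not tested.

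Most members were expressed at a low level. The median of their mean FPKM over 16 libraries was 4.26, against 8.83 over all 13396 genes, and 32 of 59 had a mean between 1 and 5. Their median longest transcript was 4572 bases, against 3559 over all genes with a length.

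Zbtb18 was the most abundant member. It averaged 149.8 ± 6.95 FPKM in hippocampus EE and 144.3 ± 24.6 in hippocampus SH (SD, n = 3 each), and 121.6 ± 18.3 in cortex EE and 107.5 ± 29.0 in cortex SH (n = 5 each). Its groups overlapped in both tissues, with the lowest value, 62.6 FPKM, in cortex SH replicate 3. Zbtb12 followed with 50.2 ± 7.16 FPKM in cortex EE and 45.9 ± 5.76 in cortex SH. Next came Zscan21, known in the mouse as Zipro1 from work on cerebellar granule neurons, with 23.7 ± 1.3 FPKM in cortex EE and 29.6 ± 2.26 in cortex SH.

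At the other end of the range Zscan30 averaged 0.578 FPKM over all libraries, Zscan20 0.926 and Zbtb7b 1.08. Zbtb7b is ThPOK, which directs thymocytes to the CD4 lineage. Of the other well studied members, Zbtb17 (Miz1, a partner of Myc) averaged 15.9 FPKM over 16 libraries and Zbtb45 11.6 FPKM. The methyl-CpG binders Zbtb33 (Kaiso), Zbtb4 and Zbtb38 averaged 11, 4.52 and 1.36 FPKM. Zbtb48 (TZAP, a telomere-binding protein in human cells) averaged 6.08 FPKM, and Zbtb24, which when mutated in humans causes an immunodeficiency with loss of DNA methylation at repeats near centromeres, averaged 4.14 FPKM. Zbtb7a (LRF) averaged 2.76 FPKM and Zbtb16 (PLZF) 2.69 FPKM. FPKM is scaled by length, which allows a rough comparison of these levels between genes. Library deviations that followed transcript length remained in FPKM, and the annotation behind the values is not given.

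**Figure D1:**
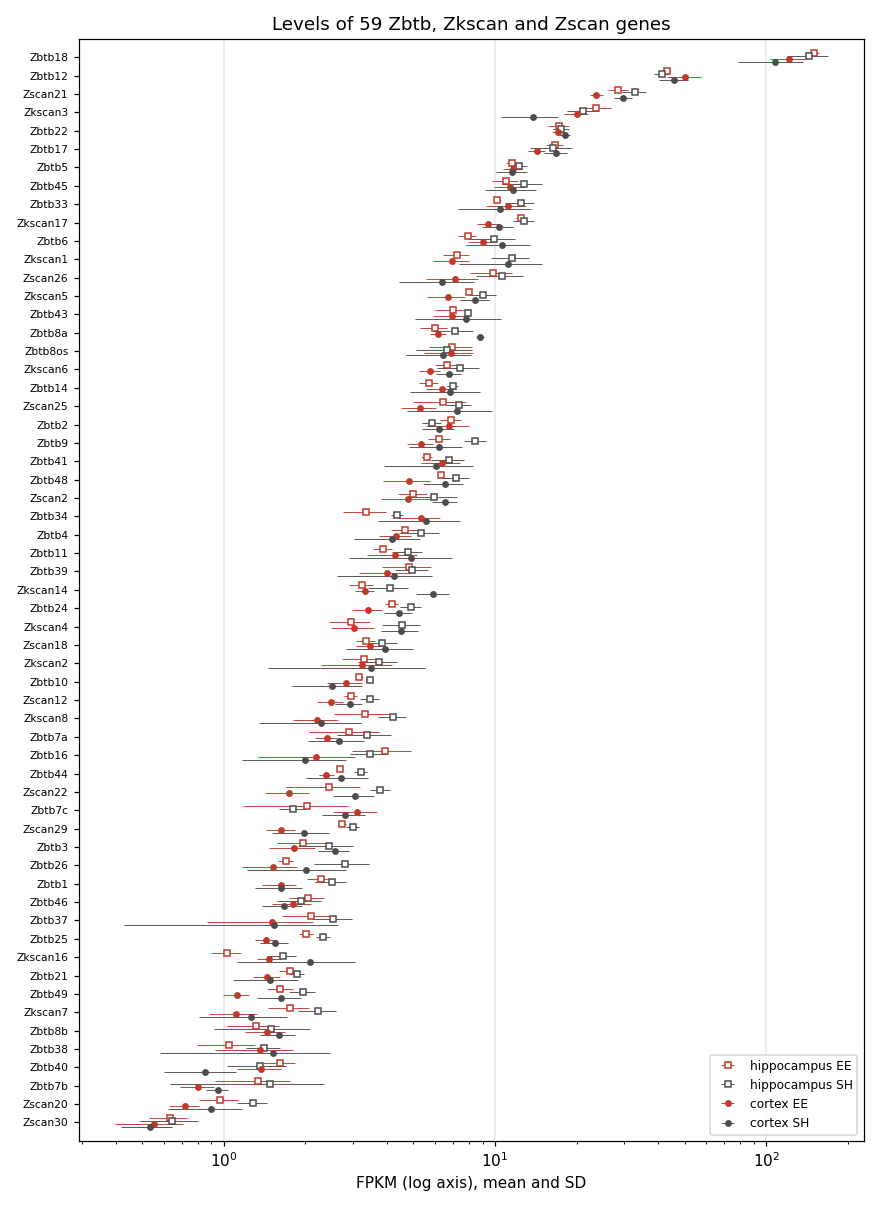
Mean FPKM (log axis) with SD of each of the 59 members in hippocampus EE (open red squares, n = 3), hippocampus SH (open grey squares, n = 3), cortex EE (red circles, n = 5) and cortex SH (grey circles, n = 5). Zbtb18 lies above all other members in every group, and most members lie between 1 and 10 FPKM.

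The question the series asks is whether a prenatal enriched environment changes the fetal brain. Over all 16 libraries, with a term for the 3 blocks (cortex replicates 1 to 3, cortex replicates 4 and 5, hippocampus), Zkscan14 and Zscan22 were lower in EE than in SH. No member was higher. A further 3, Zkscan4, Zbtb8a and Zkscan1, came close to the threshold on the lower side. The largest positive difference was that of Zkscan3. Tests were made with limma on log2(FPKM + 1) over every gene whose mean reached 1 FPKM, with Benjamini-Hochberg adjustment over all of them and a threshold of 0.05. On this scale the differences of low genes are understated.

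Zkscan14, a KRAB and SCAN zinc finger gene on chromosome 5 (145194946 to 145201868 on mm10, minus strand), had 2.94, 3.58, 3.35, 3.15 and 3.57 FPKM in cortex EE, against 5.50, 5.48, 7.30, 6.09 and 5.25 FPKM in cortex SH. In hippocampus it had 3.22, 2.9 and 3.57 FPKM in EE, against 4.46, 3.30 and 4.51 FPKM in SH. The cortex groups did not overlap, while hippocampus SH replicate 2 fell within the range of hippocampus EE. The fitted log2 difference was -0.52 (SE 0.095, 95% interval -0.72 to -0.32, limma adjusted p = 0.0297), with 8 of 8 EE libraries below the SH mean of their block. In bulk tissue, fewer cells that use a gene and less RNA of it per cell cannot be told apart.

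Zscan22 lies on chromosome 7 (12897815 to 12909083, plus strand). It had 1.69, 2.10, 1.39, 1.49 and 2.06 FPKM in cortex EE, against 3.29, 2.82, 2.29, 3.69 and 3.19 FPKM in cortex SH. In hippocampus it had 2.67, 3.05 and 1.61 FPKM in EE, against 4.15, 3.53 and 3.65 FPKM in SH. Every EE library lay below every SH library of its tissue. The log2 difference was -0.54 (SE 0.10, 95% interval -0.75 to -0.32, limma adjusted p = 0.0299).

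These 2 lower calls are 3.51% of the 57 members tested, while 0.3% of all 12672 genes tested were called lower and 0.0316% higher. Both members were also called when limma-voom was run on the recovered reads. Neither was called with a term for replicate number within each tissue, whose values are given in the closing part. The calls changed with single libraries. Over the 16 fits that each left out 1 library, Zkscan14 stayed past the threshold in 7 and Zscan22 in 5, with adjusted p of 0.0880 and 0.0904 at most. Neither was called without cortex EE replicate 1, 3, 4 or 5, without cortex SH replicate 1, 2, 4 or 5, or without hippocampus SH replicate 3, while the log2 difference stayed between -0.58 and -0.47 for Zkscan14 and between -0.58 and -0.48 for Zscan22. Without cortex SH replicate 3 the count was 7 members (Zbtb26, Zbtb8a, Zkscan1, Zkscan14, Zkscan16, Zkscan4 and Zscan22, 12.3% of 57), all lower, while 1.74% of all genes were called lower. Without cortex EE replicate 2 it was 4 of 57 (7.02%, against 0.387% of all genes), and without hippocampus SH replicate 1 it was 4 of 56 (7.14%, against 0.356%), all lower.

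Zkscan4 lies on chromosome 13. It had 3.65, 3.53, 2.36, 2.67 and 2.94 FPKM in cortex EE, against 4.27, 3.93, 4.36, 5.74 and 4.19 FPKM in cortex SH. Its hippocampus values were 3.45, 2.97 and 2.45 FPKM in EE, against 3.72, 4.84 and 5.09 FPKM in SH. The groups did not overlap in either tissue, yet its log2 difference of -0.46 (SE 0.097) missed the threshold with a limma adjusted p of 0.0508.

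Zbtb8a had 5.51, 6.33, 6.30, 6.65 and 6.08 FPKM in cortex EE, against 8.59, 8.78, 8.64, 9.29 and 8.59 FPKM in cortex SH. In hippocampus it had 5.20, 6.27 and 6.49 FPKM in EE, against 6.11, 6.8 and 8.43 FPKM in SH. The cortex groups were far apart for their spread, and the hippocampus groups overlapped. Its log2 difference over all libraries was -0.36 (SE 0.077, limma adjusted p = 0.0543).

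Zkscan1, whose human counterpart is the host of a well known circular RNA, had 7.41, 8.46, 6.36, 5.65 and 6.92 FPKM in cortex EE, against 9.01, 9.08, 7.25, 15.7 and 14.8 FPKM in cortex SH. Its hippocampus values were 6.83, 8.14 and 6.74 FPKM in EE, against 10.5, 10.4 and 13.7 FPKM in SH. Cortex SH replicate 3 was the only SH library that did not exceed all EE libraries of its tissue. The log2 difference was -0.58 (SE 0.13, limma adjusted p = 0.0599), and it passed the threshold at -0.59 once trends with transcript length, GC content and mean level were removed from each library.

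Zkscan3, described in human cells as a repressor of autophagy genes, went the other way. It had 20.2, 20.6, 18.7, 17.8 and 23.0 FPKM in cortex EE, against 16.6, 16.5, 9.14, 15 and 11.8 FPKM in cortex SH. In hippocampus it had 22.7, 27.2 and 21.1 FPKM in EE, against 23.8, 21.5 and 18.3 FPKM in SH. The groups were apart in cortex and overlapped in hippocampus. Its log2 difference over all libraries was 0.39 (SE 0.12, limma adjusted p = 0.209). The other members with the smallest p on the higher side were Zbtb40 at 0.28 (adjusted p = 0.250), Zbtb2 at 0.14 and Zbtb12 at 0.10, the last 2 with intervals that include 0.

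**Figure D2:**
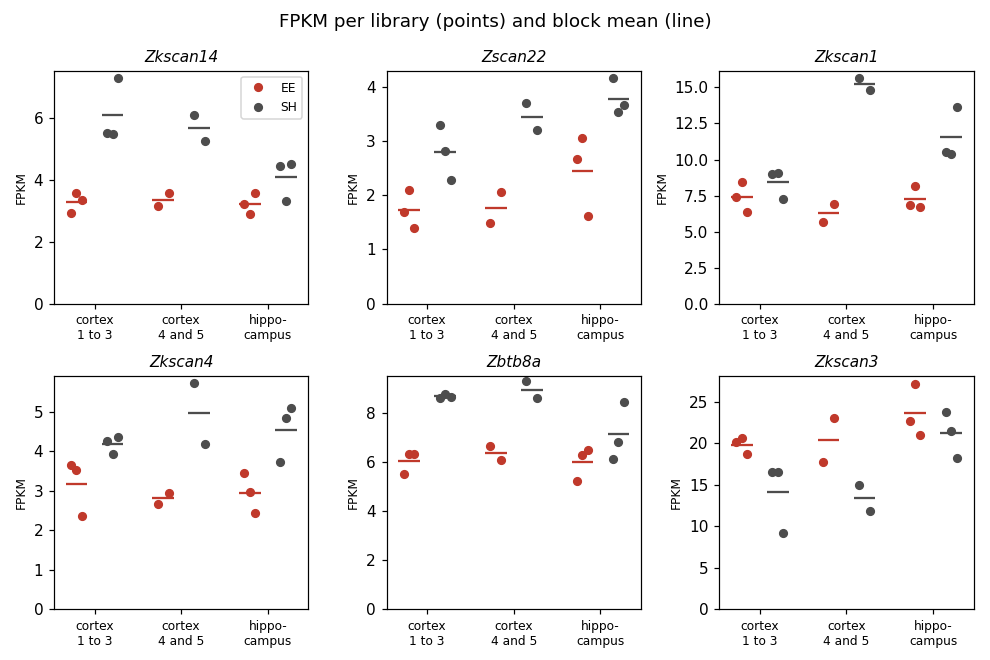
FPKM of 6 members in every library (points), with the mean of each block as a line, EE in red left of SH in grey within cortex replicates 1 to 3, cortex replicates 4 and 5, and hippocampus. The 8 EE libraries lie below the SH mean of their block for Zkscan14, Zscan22, Zkscan4 and Zbtb8a, and above it in 7 of 8 for Zkscan3.

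Across the family the differences leaned to the lower side. Of the 57 members tested 46 had a log2 difference below 0 (80.7%, against 54.2% of all genes tested), and their median was -0.12, against -0.012 over all genes. At an unadjusted p under 0.05, 16 members were lower and 2 higher (28.1% and 3.51%), against 7.41% and 1.99% of all genes. By name, 29 of 38 Zbtb, 10 of 11 Zkscan and 7 of 8 Zscan genes were below 0, with medians of -0.089, -0.17 and -0.22. Members whose EE libraries lay below all SH libraries within every block were Zkscan4, Zscan21 and Zscan22 (5.26%, against 0.742% of all genes), and 0 lay above (against 0.0947%). The median stayed at -0.097 with the length, GC and level trends removed and was -0.18 without cortex SH replicate 3, -0.075 with 40 members below 0 without cortex EE replicate 4, and -0.081 with 41 below 0 without cortex SH replicate 4. The 2 members Zscan20 and Zscan30 were below the filter and enter none of these counts.

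**Figure D3:**
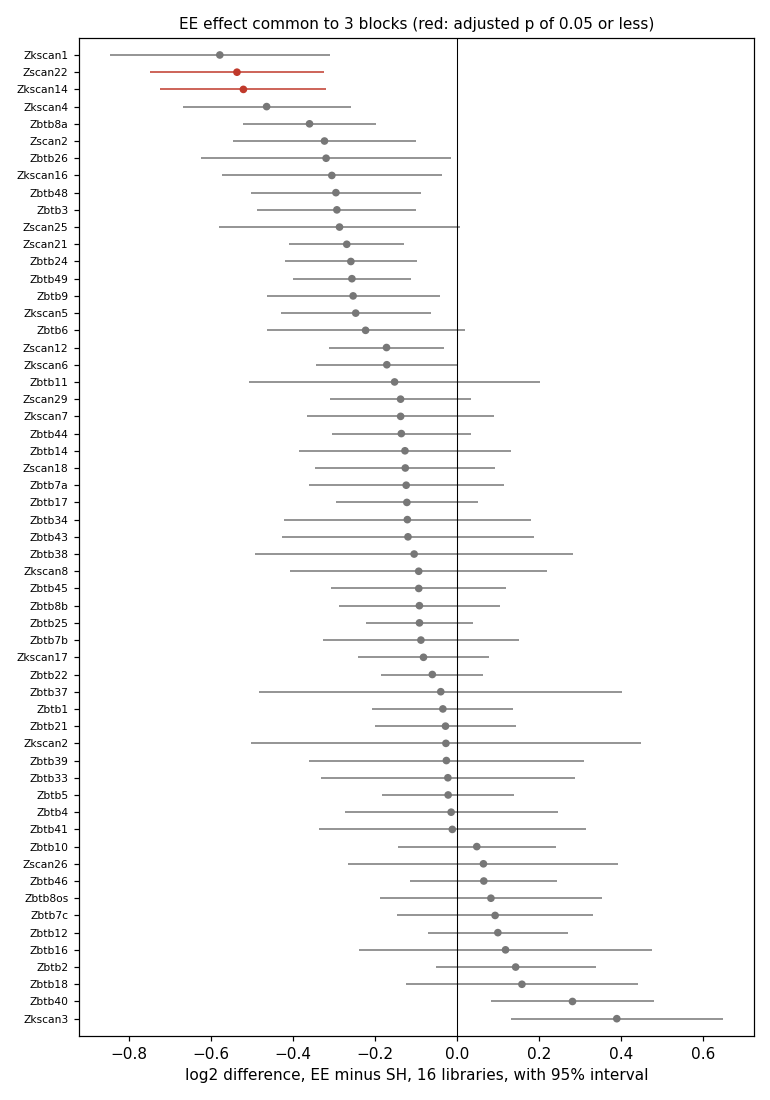
Log2 difference, EE minus SH, of the 57 members tested over 16 libraries with a term for block, with 95% intervals from limma. Zscan22 and Zkscan14 (red) passed the adjusted threshold, and 46 of 57 points lie below 0.

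Cortex alone, fitted with its 2 sets of replicates as a term, had 0 of 56 members past the threshold. In this comparison limma called 0.00798% of 12539 genes lower and 0.0% higher, and limma-voom also called 0 members. At an unadjusted p under 0.05, 13 members were lower and 2 higher (23.2% and 3.57%, against 5.49% and 1.95% of all genes). The smallest p belonged to Zkscan14, with a log2 difference of -0.68 (SE 0.10, limma adjusted p = 0.170), then to Zbtb8a at -0.45 (0.185), Zscan22 at -0.56 (0.240) and Zscan21 at -0.31 (0.378).

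Among the higher members in cortex Zkscan3 led with 0.53 (SE 0.16, limma adjusted p = 0.442), followed by Zbtb40 at 0.36 (0.471), Zbtb18 at 0.21 (0.820) and Zbtb10 at 0.14 (0.823). Without SH replicate 3 the last 2 were at 0.046 and 0.045, Zkscan3 was at 0.39 and Zbtb40 at 0.33. Zbtb40 had 1.17, 1.19, 1.22, 1.65 and 1.66 FPKM in cortex EE, against 1.22, 0.940, 0.669, 0.570 and 0.868 FPKM in cortex SH, so that SH replicate 1 lay within the EE range. In 7 members the EE libraries lay below all SH libraries within each set (12.5%, against 2.95% of all genes), and in Zkscan3 alone they lay above (1.79%, against 1.16%). In all 37 members were below 0 (66.1%, against 54.0% of all genes) with a median of -0.086, and 47 were (83.9%, against 56.4%) without SH replicate 3, with a median of -0.19. The median also depended on other libraries, at -0.034 (30 members below 0) without SH replicate 4, -0.036 (36) without EE replicate 5 and -0.056 (31) without EE replicate 4. Markers of striatum summed to 55.9 to 88.4 FPKM in cortex EE and 80.0 to 98.0 FPKM in cortex SH, and erythroid markers to 965 to 1798 and 869 to 4072 FPKM. Their part in these differences was not tested.

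The cortex sets did not look alike. In replicates 1 to 3, 0 members passed with limma or with limma-voom (background of 0.0% in either direction among 12890 genes), and at an unadjusted p under 0.05 there were 4 lower members (7.14%, against 7.37% of all genes) and 0 higher (against 1.92%). Those 4 were Zkscan14 at -0.72, Zbtb8a at -0.46, Zscan22 at -0.48 and Zbtb48 at -0.47 (limma adjusted p = 0.414 for each). Only 21 of 56 members were below 0 (37.5%, against 53.3%) and the median was 0.066. Leaving out SH replicate 3 turned the members' median to -0.070, against -0.054 over all genes, with 37 of 56 below 0 (66.1%, against 63.1%). Removing the length, GC and level trends turned the members' median to -0.052, against -0.0018 over all genes.

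In replicates 4 and 5, 3 of 56 members were lower in EE (5.36%, against 1.79% of all 12576 genes) and 0 higher (against 1.67%). Zkscan1 had 5.65 and 6.92 FPKM in EE, against 15.7 and 14.8 FPKM in SH, a log2 difference of -1.16 (SE 0.22, limma adjusted p = 6.1e-05). Zscan25 had 5.79 and 4.27 FPKM in EE, against 10.7 and 7.91 FPKM in SH (-0.77, SE 0.23, adjusted p = 0.0276). Zbtb37 had 0.607 and 1.31 FPKM in EE, against 3.24 and 1.34 FPKM in SH (-0.71, SE 0.22, adjusted p = 0.0435), which is a difference carried by 1 library of each group. With limma-voom Zkscan1 and Zbtb37 were called again, and Zscan25 was not.

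With 2 libraries a group, the spread in this set was taken almost wholly from limma's trend over all genes. A total of 51 of 56 members were below 0 (91.1%, against 51.9%) with a median of -0.34. Unadjusted p-values under 0.05 were found for 21 lower and 3 higher members (37.5% and 5.36%, against 9.69% and 7.43% of all genes). The 2 EE libraries lay below both SH libraries in 35 members (62.5%, against 24.9%) and above them in 4 (7.14%, against 21.7%). Leaving out EE replicate 4 gave 6 lower and 2 higher members (10.7% and 3.57%, against 3.8% and 4.1% of all genes). Leaving out EE replicate 5 gave 16 lower and 1 higher (28.6% and 1.79%, against 8.38% and 6.5%), and leaving out SH replicate 4 or SH replicate 5 gave 0. With the length, GC and level trends removed, 0 members and 0 of all genes passed, and the members' median was -0.23. Over all genes the rho between a library's deviation and transcript length was -0.25 and -0.34 in EE replicates 4 and 5 and 0.45 and 0.26 in SH replicates 4 and 5, whereas in replicates 1 to 3 the EE libraries lay between 0.43 and 0.63 and the SH libraries between -0.74 and 0.26.

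In hippocampus 0 of 58 members passed with limma or limma-voom (background of 0.0% of 13344 genes in either direction). At an unadjusted p under 0.05, 6 were lower and 0 higher (10.3% and 0.0%, against 3.07% and 0.704% of all genes). These were Zkscan1 at -0.60 (SE 0.14), Zbtb9 at -0.39 (SE 0.12), Zkscan4 at -0.49 (SE 0.16), Zbtb26 at -0.48 (SE 0.16), Zkscan16 at -0.38 and Zscan22 at -0.50, with a limma adjusted p of 0.9996 for each. Zbtb9 had 5.60, 6.77 and 6.33 FPKM in hippocampus EE, against 7.96, 8.09 and 9.37 FPKM in SH, and Zbtb26 had 1.58, 1.79 and 1.73 FPKM in EE, against 3.00, 2.06 and 3.30 FPKM in SH. Neither pair of groups overlapped.

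The members that were highest in hippocampus EE relative to SH were Zbtb2 at 0.21, Zkscan3 at 0.15, Zbtb40 at 0.15 and Zbtb16 at 0.13, none with an unadjusted p under 0.05. In Zbtb16 the difference was carried by EE replicate 3, at 5.05 FPKM against 3.46 and 3.29 in the other EE libraries and 3.81, 3.75 and 2.85 in SH. Below 0 were 48 of 58 members (82.8%, against 52.8% of all genes), with a median of -0.17 against -0.010. In 19 of 58 every EE library was below every SH library (32.8%, against 7.32%), and in 0 every EE library was above (against 2.59%). With the trends removed the median was -0.099. The rho with transcript length was -0.48 to 0.11 in hippocampus EE and 0.070 to 0.20 in hippocampus SH.

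The 3 blocks share no library, so their directions can be set side by side. Of the 56 members tested in all blocks, 18 were below 0 in each (32.1%, against 14.3% of 12232 genes), and 3 were above 0 in each (5.36%, against 10.3%), which were Zbtb12, Zbtb40 and Zkscan3. In hippocampus and in cortex replicates 4 and 5 together, 45 of 56 were below 0 (80.4%, against 39.2%). These are the blocks where most members were below 0, 48 of 58 and 51 of 56, against 21 of 56 in cortex replicates 1 to 3. The share for this pair therefore follows in part from its choice, and the pairs with cortex replicates 1 to 3 were not counted. A list of 13 members tested in all blocks held those with known roles and Zbtb8os, which belongs by name only. Of them 3 were below 0 in each (Zbtb24, Zbtb48 and Zkscan1) and 1 was above in each (Zkscan3). The other 9, Zbtb18, Zbtb33 and Zbtb8os among them, changed sign between blocks. The counts over all 3 blocks, and the signs of these 13, include cortex SH replicate 3 and were not made without it. Without that library 37 of 56 members were below 0 in cortex replicates 1 to 3.

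**Figure D4:**
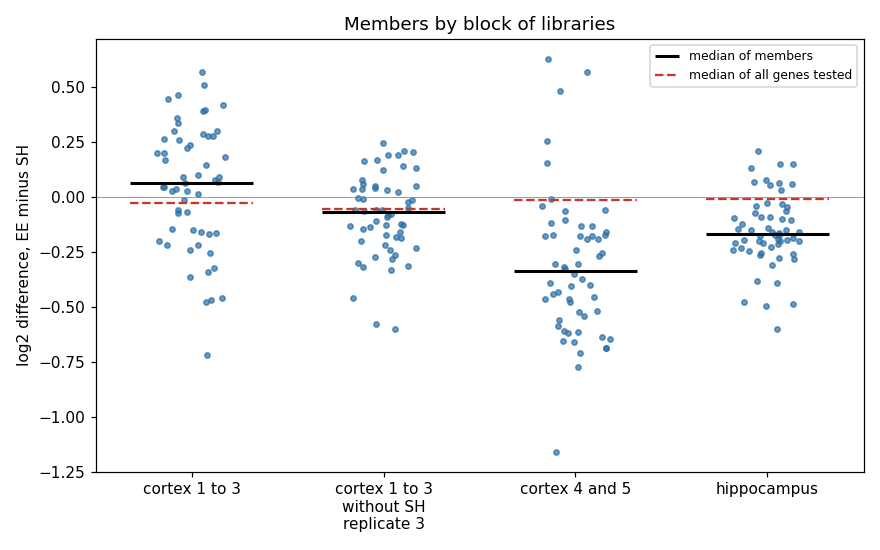
Log2 difference, EE minus SH, of each member tested (points) in cortex replicates 1 to 3, the same set without SH replicate 3, cortex replicates 4 and 5, and hippocampus, with the median of members (black line) and of all genes tested (red dashes). The median of members is 0.066, -0.070, -0.34 and -0.17, and the median of all genes is -0.026, -0.054, -0.013 and -0.010.

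Whether the EE difference itself varied was tested by interaction terms. Between the tissues, hippocampus minus cortex replicates 1 to 3, 0 of 57 members passed with limma or limma-voom (background of 0.0% of 13158 genes in either direction). At an unadjusted p under 0.05 there were 4 negative and 0 positive members, 7.02% and 0.0%, against 2.14% and 5.39% of all genes. The smallest p belonged to Zbtb34 (-0.67, SE 0.25), Zbtb33 (-0.68, SE 0.29) and Zbtb41 (-0.69, SE 0.30), with a limma adjusted p of 0.495 each. All 3 were at their lowest cortex level in SH replicate 3, with 2.89, 5.56 and 2.76 FPKM against at least 4.73, 10.4 and 5.95 FPKM in the other cortex SH libraries. Without that library the differences were -0.45, -0.39 and -0.39 (adjusted p = 0.739 each), and 38 of 57 members were below 0 (66.7%, against 44.9% of all genes) with a median of -0.081, where with it 44 were below 0 with a median of -0.18. With the length, GC and level trends removed, 35 were below 0 (61.4%, against 52.5%) and the median was -0.068.

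Between the cortex sets, replicates 4 and 5 minus 1 to 3, 0 of 56 members passed with either tool (background of 0.0% of 12539 genes in either direction), with 12 negative and 1 positive at an unadjusted p under 0.05 (21.4% and 1.79%, against 7.58% and 11.8%). Zkscan1 (-0.99, SE 0.22), Zkscan5 (-0.58, SE 0.18) and Zbtb34 (-0.92, SE 0.31) had the smallest p (limma adjusted p = 0.251 each). The change of level with length moves with these interactions: the members' rho between interaction and transcript length was -0.67 for the tissues (57 members) and -0.49 for the cortex sets (56 members), and -0.74 and -0.72 over all genes. With the length, GC and level trends removed the cortex median was -0.23, with 40 of 56 members below 0 (71.4%, against 51.2% of all genes), where with them it was -0.37 with 45 below 0. Zkscan1 was then at -0.36, Zkscan5 at -0.44 and Zbtb34 at -0.40. Without SH replicate 3 the median was -0.26.

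Many members lie next to each other in the genome, and 22 of the 59 fell into 8 groups of neighbours less than 500000 bases apart, on mm10. The group on chromosome 13 holds Zscan12, Zkscan3, Zscan26, Zkscan4 and Zkscan8 in that order, and its genes did not move together. Over the 16 libraries their log2 differences were -0.17, 0.39, 0.065, -0.46 and -0.093. Zkscan3 and Zkscan4 lie with Zscan26 as the only other member between them and were at opposite ends.

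On chromosome 5, Zkscan1 (-0.58) and Zscan21 (-0.27) lie 9.08 kb apart. A second group on that chromosome holds Zkscan14 (-0.52), Zkscan5 (-0.25) and Zscan25 (-0.29), and all 3 were below 0 in every block. Zkscan14 and Zkscan5 lie on opposite strands with 2.69 kb between them. On chromosome 7, Zscan22 (-0.54) stood between Zscan18 (-0.13) and Zbtb45 (-0.093), each over 94 kb away.

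On chromosome 4, Zbtb8a (-0.36) and Zbtb8os (0.083) overlap on opposite strands, and Zbtb8b (-0.091) follows. The sources used here do not state whether counting used the strand, so reads in the overlap of 0.92 kb could belong to either gene. Zbtb6 (-0.22) and Zbtb26 (-0.32) on chromosome 2 overlap on the same strand over 11 kb, and reads could have been split between them as well. The remaining pairs were Zbtb34 and Zbtb43 (-0.12 each) and Zbtb25 and Zbtb1 (-0.091 and -0.034).

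The tissues were set against each other in replicates 1 to 3, with 6 libraries for each and a term for treatment. Of 57 members 14 were higher in hippocampus (24.6%, the same as the 24.6% of all 13158 genes) and 1 was lower (1.75%, against 10.9%). Before adjustment 23 were higher and 2 lower at p under 0.05 (40.4% and 3.51%, against 30.8% and 14.4%), and 14 were below 0 (24.6%, against 39.6%). The 6 hippocampus libraries lay above all 6 cortex libraries in 11 members (19.3%, against 14.9%) and below them in 0 (against 5.5%). Without cortex SH replicate 3 the split was 16 higher and 4 lower (28.1% and 7.02%, against 28.5% and 15.2%), with a median of 0.15. With median-of-ratios scaling it was 9 higher and 4 lower (15.8% and 7.02%, against 16.5% and 16.9% of all genes). That scaling moved the median of all genes from 0.092 to -0.028, and the members' median from 0.19 to 0.066, so the members lay about as far above the median of all genes under both. With the length, GC and level trends removed the split was 9 higher and 5 lower (15.8% and 8.77%, against 20.9% and 19.4%). The members' median was then -0.011 against 0.00028 over all genes.

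Zscan29 had the smallest p. It had 2.64, 2.80 and 2.77 FPKM in hippocampus EE and 3.14, 2.80 and 3.03 FPKM in hippocampus SH, against 1.82, 1.82 and 1.53 FPKM in cortex EE and 1.84, 1.83 and 1.32 FPKM in cortex SH. The tissues did not overlap, and the log2 difference was 0.52 (SE 0.085, limma adjusted p = 0.000571). The widest positive difference was that of Zbtb16, which in other organs marks stem cells of the male germ line and innate lymphocytes. It averaged 3.70 ± 0.749 FPKM in hippocampus and 1.9 ± 0.807 FPKM in cortex (SD, n = 6 each), a log2 difference of 0.74 (SE 0.19, adjusted p = 0.00984). The lowest hippocampus library was above the highest cortex library by a small margin, 2.85 against 2.82 FPKM.

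Zkscan8 (0.63, adjusted p = 0.0149), Zkscan7 (0.51, 0.00738), Zbtb1 (0.41, 0.00739), Zbtb25 (0.38, 0.00252), Zkscan17 (0.35, 0.00295) and Zbtb49 (0.30, 0.0108) were also higher in hippocampus by limma, and their tissues did not overlap either. Zbtb1, a factor of lymphocyte development, and Zbtb25 lie 0.663 kb apart on opposite strands. Zbtb1, Zbtb25 and Zbtb49 were not called once the length, GC and level trends were removed, at 0.073, 0.22 and 0.086. The remaining 6 called higher, between 0.23 and 0.64, were Zscan12, Zbtb9, Zbtb10, Zkscan3, Zbtb18 and Zscan26. Of these Zscan12, Zbtb9 and Zbtb10 were not called with those trends removed (0.0098, 0.17 and 0.080), and with median-of-ratios scaling Zscan12, Zbtb9, Zbtb10, Zkscan3 and Zbtb18 were not. Zbtb18 averaged 147.1 ± 16.4 FPKM in hippocampus and 107.0 ± 25.5 FPKM in cortex (SD, n = 6 each), and the tissues overlapped.

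Zbtb7c was the member lower in hippocampus. It had 1.67, 1.41 and 3.00 FPKM in hippocampus EE and 2.0, 1.83 and 1.59 FPKM in hippocampus SH, against 3.03, 3.64 and 3.61 FPKM in cortex EE and 3.36, 2.43 and 2.16 FPKM in cortex SH. Hippocampus EE replicate 3 lay within the cortex range. The log2 difference was -0.47 (SE 0.13, limma adjusted p = 0.0152), and with median-of-ratios scaling Zbtb12 (-0.36), Zbtb34 (-0.42) and Zkscan14 (-0.36) were called lower beside it. Markers of meninges and fibroblasts summed to 86.7 to 283 FPKM in hippocampus EE and 51.3 to 339 in hippocampus SH, against 169 to 293 in cortex EE and 246 to 328 in cortex SH. Microglial markers summed to 90.2 to 121 FPKM in hippocampus EE and 48.3 to 138 in hippocampus SH, against 77.2 to 115 in cortex EE and 65.6 to 192 in cortex SH. Striatal markers summed to 15.1 to 22.3 FPKM in hippocampus EE and 13.9 to 34.5 in hippocampus SH, against the cortex values above. Choroid plexus markers summed to 12.8 to 702 FPKM in cortex EE and 17.4 to 290 in cortex SH. In hippocampus they summed to 36.5 to 10470 FPKM in EE and 39.3 to 16921 FPKM in SH. The part of these cell types in the tissue differences was not tested.

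**Figure D5:**
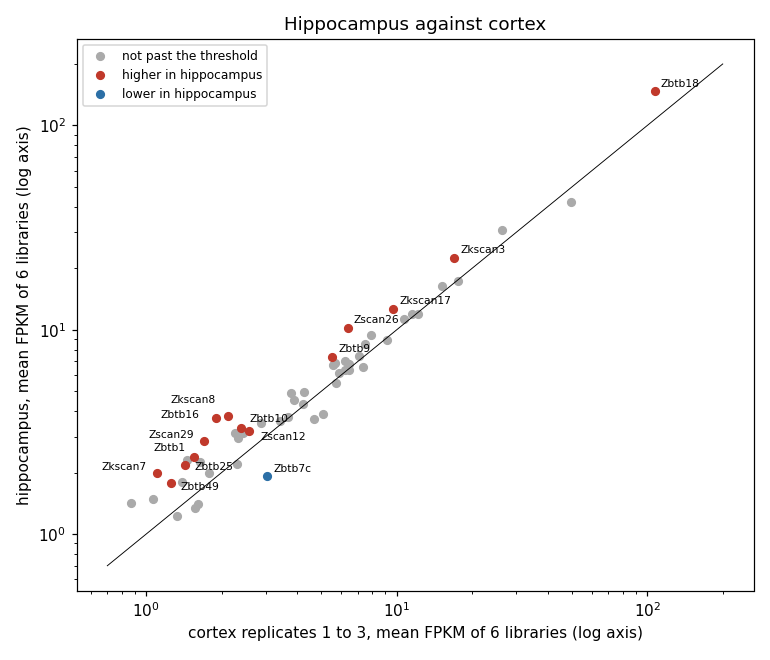
Mean FPKM of the 57 members tested in hippocampus (vertical, 6 libraries) against cortex replicates 1 to 3 (horizontal, 6 libraries), both axes logarithmic, with the line of equal levels. Red points were higher in hippocampus (14) and the blue point, Zbtb7c, lower, at an adjusted p of 0.05 or less.

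Related genes outside the naming pattern were read beside the members. Of 8 BTB zinc finger genes with other names, 0 passed in any comparison of EE with SH. Over all libraries 6 of the 8 were below 0 (median -0.048) and 2 were lower at an unadjusted p under 0.05, where 54.2% of all genes were below 0 and 7.41% lower at that p. The smallest p was that of Bcl6, a repressor that promotes neurogenesis in the cortex, with 1.42 ± 0.365 FPKM in hippocampus EE and 2.13 ± 0.430 in hippocampus SH, and 2.76 ± 0.717 in cortex EE and 4.07 ± 1.39 in cortex SH (log2 difference -0.40, SE 0.13, limma adjusted p = 0.264).

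Of 13 tested SCAN genes with other names 0 passed over all libraries. Of these 9 were below 0 (median -0.031) and 5 were lower at an unadjusted p under 0.05, against the same shares of all genes, led by Zfp213 (-0.30, SE 0.080, limma adjusted p = 0.135). In cortex replicates 4 and 5, with 2 libraries a group, 1 was higher and 1 lower, against 1.67% and 1.79% of all genes. The higher one was Scand1, which has a SCAN domain without zinc fingers (1.5, SE 0.21, limma adjusted p = 2.3e-09). With the length, GC and level trends removed, 0 of all genes passed in that set. In cortex replicates 1 to 3 Scand1 was at -0.66 (SE 0.34). Over cortex as a whole Scand1 averaged 45.9 ± 18.5 FPKM in EE and 56.9 ± 55.1 in SH (SD, n = 5 each).

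Of 14 partners of BTB proteins, corepressor subunits and Cul3 ligase components, 0 passed in any comparison of EE with SH, and over all libraries 7 were above and 7 below 0 with a median of 0.0027. At an unadjusted p under 0.05 there were 0 in either direction over all libraries. Between tissues 2 of the 8 BTB genes were higher in hippocampus and 1 lower, led by Bcl6b (0.53, SE 0.083, limma adjusted p = 0.000471), and 3 of the 13 SCAN genes were higher, led by Zfp446 (0.54, SE 0.11, adjusted p = 0.00218).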

How the data were processed

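Each library has 1 table of gene symbols and FPKM values, made by the authors. Tools listed in the submitters' processing notes, with no role stated, are StringTie 1.3.4d, HISAT2 2.0.4, cutadapt 1.9, DESeq2 and edgeR, and the build is mm10. The annotation, the strand setting and the filter on listed genes are not given in the sources used here. Per the labels' protocols, Trizol and a NEBNext Ultra kit were used.

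Genes missing from a table were treated as missing, not as 0. Two-sided linear models were fitted in limma 3.58.1 under R 4.3.3, using lmFit followed by eBayes (trend = TRUE), on log2(FPKM + 1) with a mean FPKM of at least 1 over the libraries of the fit and Benjamini-Hochberg adjustment over all genes tested. The cortex model had replicate set as a term, the common effect with a term for block, and the tissues with a term for treatment. Whole reads were recovered from the steps of FPKM at a tolerance of 0.003 reads for 99.96 to 99.97% of genes per library, which hold 90.6 to 94.2% of the summed FPKM, and served limma-voom as an alternative. That test called 1 gene in cortex, 0 in hippocampus and 39 over all libraries, where limma on FPKM called 1, 0 and 42. The tests were checked on simulated data. Depth is known only as these reads, whose number limits the precision of low genes.

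Other alternatives were median-of-ratios scaling, no filter or a minimum of 5 FPKM, a pseudocount of 0.1, removal of trends with transcript length, GC content and mean level, a replicate block, no term for the set, and leaving out each library. Positions and lengths came from GENCODE M21 (mm10), promoters from RefSeq (GRCm38.p6). The lists were the members, 3 lists of related genes and 7 lists of cell type markers. Named members were those past a threshold, up to 8 with the smallest p per direction. To these were added the 4 higher and 4 lower with the smallest p in cortex, hippocampus and the common effect. Also added were 3 per interaction, the 3 highest and lowest in level, members with known roles, and Zbtb8os, which fits by name only. Others are named where a count of 5 or fewer, a neighbour or a setting singles them out. Members and lists were chosen with earlier results of these data known. One symbol that fits the pattern is not reported here, and 1 is not in every library.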

Additional observations from a re-analysis of the deposited data

Results flagged for a closer look

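In groups of 5 libraries, 1 library stood far from the other 4 in 5 of 80 groups examined (the gap to the nearest library, over the range of the group, exceeded 0.71); chance gives this in about 1 of 20 groups. Zbtb4 had its lowest cortex EE value, 3.29 FPKM, in replicate 4. Zbtb34 had its lowest cortex EE value, 3.76 FPKM, in replicate 5. Cortex SH replicate 4 held the highest SH values of Zbtb8a (9.29 FPKM) and Zkscan4 (5.74 FPKM), on the side away from EE. Zbtb8os, which overlaps Zbtb8a on the other strand, had its highest cortex SH value, 9.42 FPKM, in replicate 3.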

How the results depend on the processing

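Members called numbered 0 in hippocampus, cortex, cortex replicates 1 to 3 and both interactions under every alternative run. The 2 calls over all libraries became 0 at a minimum of 5 FPKM, where both genes fall under the filter, and 0 with a replicate block (adjusted p = 0.129 for Zkscan14 and 0.103 for Zscan22), where 5 genes in all were called; they ranged from 0 to 7 with 1 library left out. The 3 calls in cortex replicates 4 and 5 became 6 with no filter, 5 with limma-voom, 9 with a replicate block and 0 with the trends removed, and 0 to 17 with 1 library left out. The 6 were 5 lower and 1 higher, the 5 were 4 lower and 1 higher, and the 9 were 8 lower and 1 higher. Of all genes, 428 of 13448 were called with no filter and 385 of 12572 with limma-voom. With a replicate block 766 of 12576 were called, against 435 of 12576 as reported. The members' median of -0.34 in this set became -0.44 with a pseudocount of 0.1, -0.45 with limma-voom and -0.23 with the trends removed. It ran from -0.44 to -0.23 with 1 library left out. The hippocampus median of -0.17 became -0.099 with the trends removed. Between tissues the 15 calls of 57 members, where 4661 of 13158 genes were called, became 5 of 25 at a minimum of 5 FPKM. At that minimum 2744 of 8974 genes were called. The members' median of 0.19 between tissues became -0.011 with the trends removed. The sign of Zbtb16 in hippocampus EE against SH turned to -0.024 without EE replicate 3, and the difference ran from there up to 0.23 with 1 library left out. The cause of these changes was not tested beyond what each setting removes.

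Replicate numbers were not taken as pairs, since not every same-numbered correlation of deviations exceeded 0.1: they were -0.55 to 0.37 in hippocampus, 0.088 to 0.40 in cortex replicates 1 to 3, 0.13 in cortex replicates 4 and 5, and across tissues -0.026 to 0.23 in EE and 0.041 to 0.27 in SH. Libraries went best with their own number in 1 of 3 cases in hippocampus, 3 of 3 and 2 of 2 in the cortex sets, and 2 of 3 (EE) and 3 of 3 (SH) across tissues, a hint from the data and not the design. The 2 of 2 rests on a single sign, because with 2 libraries a group their deviations mirror each other. The block changed the calls above and moved the tissue count to 16 of 57, where 4357 of 13158 genes were called. Members had a median of 366 reads per library, where the median over all listed genes was 367 to 643 reads. Few reads limit low genes most.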
